A study of Homo sapiens with 8 samples.

Results

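The 10 genes described here mark or drive the epithelial-mesenchymal transition (EMT): CDH1, EPCAM, CDH2, VIM, FN1, SNAI1, SNAI2, TWIST1, ZEB1 and ZEB2. They were taken by name, and all 10 are among the 60282 genes of the deposited table, and 33192 of those were detected in these libraries. RNA was measured in SK-UT-1 cells, a human line established from uterine leiomyosarcoma (uLMS), a malignant tumor of the smooth muscle of the uterus. The cells received TP-472, which the labels call a BRD9/7 inhibitor, at 5 µM for 48 h, or DMSO vehicle, with 4 libraries in each group. All 8 libraries come from 1 cell line, and TP-472 was used at 1 dose and 1 time. The labels do not say whether the replicates were separate cultures. The study's methods call the replicates of its experiments biological in general, without saying how those of the RNA-seq were made, so the p-values measure the spread between these libraries, which may be in part technical. The total estimated count was 32574672 to 36634103 in the vehicle libraries and 36246277 to 38545464 in the TP-472 libraries after rounding.

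In EMT, epithelial cells give up their junctions and take on a motile, fibroblast-like state. CDH1 encodes E-cadherin of the adherens junction and EPCAM an epithelial adhesion molecule, whereas CDH2 (N-cadherin), VIM (vimentin, an intermediate filament) and FN1 (fibronectin, a matrix protein) are typical of mesenchymal cells. The SNAI, TWIST and ZEB proteins are transcription factors that bind E-box sequences and repress CDH1 and other epithelial genes. Smooth muscle and the tumors that arise from it are mesenchymal, so these cells start on the mesenchymal side of this scheme.

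Because E-boxes are the sequences these factors bind, 4 of the members' promoters are shown from the RefSeq table (GRCh38.p14), as the 250 bases before an annotated start, read 5′ to 3′ on the gene's strand. Capitals mark each CANNTG, the general E-box, which reads the same way on both strands. FN1 and ZEB2 were higher with TP-472, while VIM and ZEB1 were not called. The FN1 window is chr2:215436069-215436318 (minus strand), that of ZEB2 chr2:144520120-144520369 (minus), that of VIM chr10:17227991-17228240 (plus) and that of the first annotated ZEB1 start chr10:31318167-31318416 (plus).
FN1: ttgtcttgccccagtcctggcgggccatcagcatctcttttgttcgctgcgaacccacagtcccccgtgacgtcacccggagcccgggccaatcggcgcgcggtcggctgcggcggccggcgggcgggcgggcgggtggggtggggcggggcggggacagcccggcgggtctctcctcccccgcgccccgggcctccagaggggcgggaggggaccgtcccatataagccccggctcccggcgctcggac
ZEB2: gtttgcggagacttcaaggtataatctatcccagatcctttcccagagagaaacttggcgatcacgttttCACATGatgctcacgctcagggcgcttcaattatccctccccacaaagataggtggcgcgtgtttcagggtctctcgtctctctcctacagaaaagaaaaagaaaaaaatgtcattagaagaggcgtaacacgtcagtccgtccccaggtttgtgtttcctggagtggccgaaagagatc
VIM: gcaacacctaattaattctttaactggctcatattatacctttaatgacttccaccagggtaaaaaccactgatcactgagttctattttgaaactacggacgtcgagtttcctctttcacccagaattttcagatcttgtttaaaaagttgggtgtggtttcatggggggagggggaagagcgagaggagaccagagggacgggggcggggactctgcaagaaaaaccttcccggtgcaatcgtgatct
ZEB1: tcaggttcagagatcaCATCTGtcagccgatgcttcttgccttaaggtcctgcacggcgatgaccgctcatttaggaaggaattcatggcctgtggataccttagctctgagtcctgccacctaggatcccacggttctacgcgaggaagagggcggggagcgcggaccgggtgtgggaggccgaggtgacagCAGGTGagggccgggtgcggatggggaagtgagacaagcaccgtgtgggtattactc
The FN1 and VIM windows hold no CANNTG, that of ZEB2 holds 1 (CACATG, starting 180 bases before the end of the window) and that of ZEB1 holds 2 (CATCTG and CAGGTG). The form CACCTG or CAGGTG, which are each other's reverse complement and are both CANNTG, was found in the ZEB1 window alone of these 4. The table holds 7 windows for ZEB1, of which 2 hold this form and 3 hold no CANNTG. Over all 35116 windows of this length in the table, 61.8% hold a CANNTG and 17.5% a CACCTG or CAGGTG. A match describes letters and is not a binding site. For CDH2 the table holds 2 windows, 1 without a CANNTG and 1 with a single CAGATG, which are not printed. The promoters of CDH1, EPCAM, SNAI1, SNAI2 and TWIST1 are not shown.

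One vehicle library stood apart before any gene was compared. Over the 14073 genes tested (above 1 CPM by total count in at least 4 libraries, where CPM is the count relative to library size, and all CPM printed below are further scaled by edgeR's TMM method), the median Spearman correlation of vehicle replicate 3 with the other vehicle libraries was 0.914, against 0.988 to 0.989 for the other 3 and 0.993 to 0.997 within the TP-472 group. Results are therefore given with all 8 libraries, and without this one where that moves them. The compound's targets were transcribed in all libraries: BRD9 had 72.1, 66.1, 115 and 67.8 CPM in vehicle replicates 1 to 4 and 68.9 to 76.1 CPM with TP-472, and BRD7 had 55.6 to 57.0 and 57.5 to 63.9 CPM. Neither was called, which took an adjusted p-value under 0.05 and a change over 1.5-fold (edgeR adjusted p = 0.486 and 0.324).

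Markers of smooth muscle were present in part. ACTA2, TAGLN, CALD1 and SMTN had means of 160.3, 32.3, 199.6 and 81.5 CPM in vehicle, whereas MYH11, ACTG2 and MYOCD, which mark differentiated smooth muscle, were near 0 there (0.00703, 0.021 and 0.0418 CPM). None of 6 endothelial and none of 6 leukocyte markers passed the filter on low counts. Summed, the endothelial markers gave 0.249 to 0.637 CPM in vehicle and 0.466 to 0.978 CPM in TP-472 libraries, with CLDN5 the most abundant over all libraries (0.243 and 0.212 CPM). The leukocyte markers gave 1.11 to 1.56 and 1.91 to 2.54 CPM, with ITGAM the most abundant (0.688 and 1.24 CPM), and of the defining markers CD3E had no count in any library and PTPRC a single count, in TP-472 replicate 2. The part of these sums in the results below was not tested.

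Among the 10 genes, TP-472-treated cells had more transcript of FN1, ZEB2 and SNAI1 and less of TWIST1 and EPCAM. CDH1, CDH2, VIM, SNAI2 and ZEB1 were not called. The filter on low counts kept 7 of the 10 (all but CDH1, EPCAM and SNAI1), and of these FN1 and ZEB2 were called higher and TWIST1 lower. Of all 14073 genes tested, 26.9% were called, 12.0% higher and 14.9% lower, and by adjusted p-value alone 36.3%, so 3 calls among 7 genes do not set this group apart. ZEB2 entered the 7 through the group where it is high, and the count is given as a description. In bulk RNA, fewer cells of a type and less RNA per cell cannot be told apart.

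**Figure D1:**
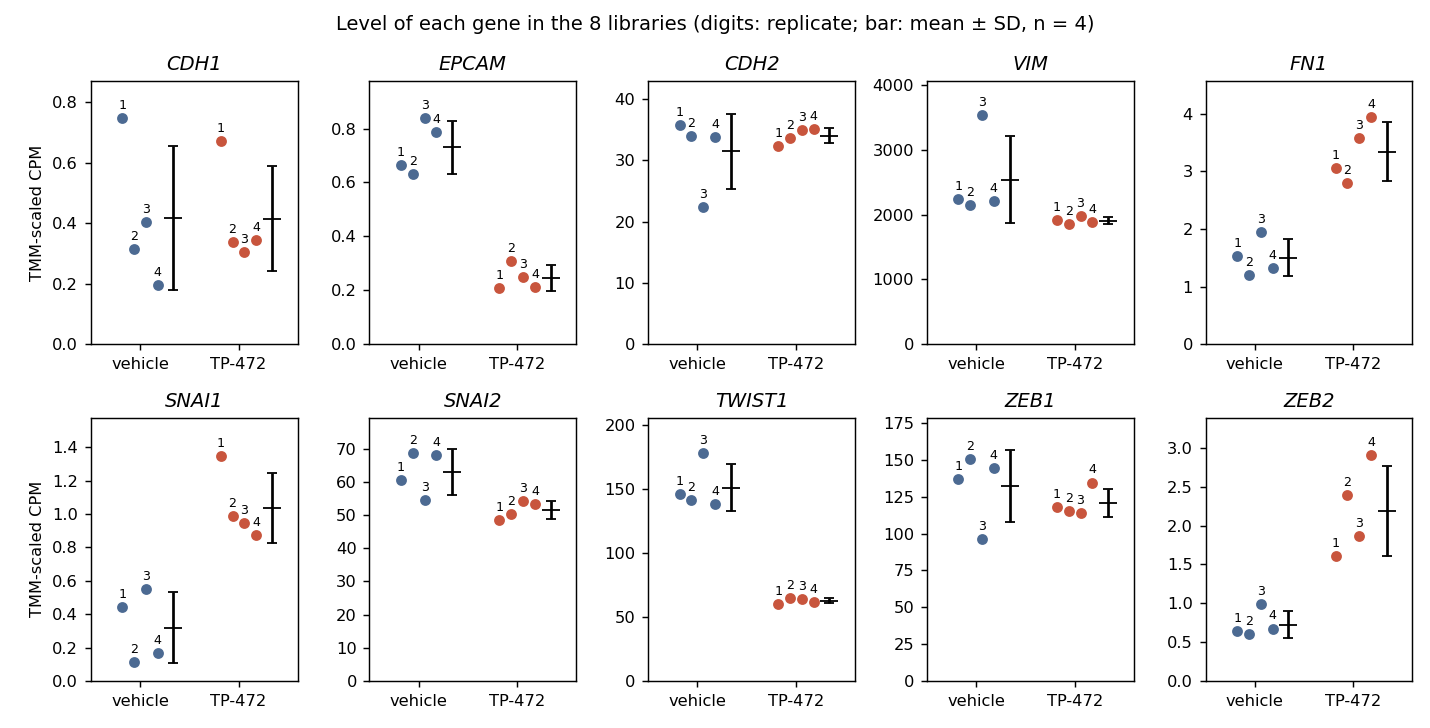
TMM-scaled CPM (y axes, linear and different in each panel) of the 10 genes in the 4 vehicle and 4 TP-472 libraries; digits give the replicate and the black bar the mean ± SD (n = 4). TWIST1, EPCAM, VIM and SNAI2 are lower and FN1, SNAI1 and ZEB2 higher in all 4 TP-472 libraries than in any vehicle library, and vehicle replicate 3 is apart for VIM at 3546 CPM and for CDH2 at 22.3 CPM.

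Of the transcription factors, TWIST1 was lower in treated cells, and SNAI1 and ZEB2 were higher. TWIST1 (ENSG00000122691.13; chromosome 7 from 19020991 to 19117672 on the minus strand, GRCh38, GENCODE 29) encodes a basic helix-loop-helix factor of mesoderm development. Its level was 146, 141, 177 and 138 CPM in vehicle replicates 1 to 4 and 60.1, 64.4, 64.1 and 61.8 CPM in TP-472 replicates 1 to 4. The groups did not overlap, and the vehicle libraries were the more spread. TWIST1 fell from 151 ± 18.1 to 62.6 ± 2.02 CPM (SD, n = 4 each), with a fitted log2 fold change of −1.27 (95% confidence interval −1.51 to −1.02, SE 0.109, edgeR quasi-likelihood adjusted p = 1.15e-04). Of its estimated counts, 7 of 8 were not whole (by more than 0.01), so salmon had divided some reads between this gene and others, and how many cannot be told from the sums. The same held in 8 libraries for VIM, 6 for ZEB1, 4 for CDH2, 3 for SNAI2 and 1 for ZEB2, and in none for CDH1, EPCAM, FN1 and SNAI1.

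SNAI1 and SNAI2, zinc finger factors of the same family known as Snail and Slug, were measured at very different depths. SNAI1 (ENSG00000124216.4; chromosome 20 from 49982999 to 49988886, plus strand) had 16, 4, 19 and 6 counts in the vehicle replicates, in order, and 52, 35, 34 and 33 counts in the TP-472 replicates. All TP-472 libraries were above all vehicle libraries, although the vehicle libraries hold only 4 to 19 counts, so that counting error is large. In CPM this is 0.319 ± 0.211 against 1.04 ± 0.211 (SD, n = 4 each), a 3.25-fold higher mean (exact permutation test, two-sided, p = 0.0286, which is the lowest value possible with this design). The gene was under the filter, and in the fit without a filter its log2 fold change was 1.70 (95% confidence interval 0.78 to 2.61, edgeR adjusted p = 0.0134), in a fit that called 15.3% of all 33192 genes with a count. SNAI2 (ENSG00000019549.13) ranged from 54.4 to 68.7 CPM in vehicle and from 48.4 to 54.3 CPM in TP-472 libraries. Its groups were separated by a narrow gap, from the highest TP-472 library to vehicle replicate 3. Its log2 fold change was −0.29 (SE 0.108, edgeR adjusted p = 0.0657) and −0.35 without vehicle replicate 3 (adjusted p = 0.00204), below 1.5-fold in both fits.

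ZEB1 and ZEB2 encode zinc finger homeobox repressors. ZEB2 (ENSG00000169554.21; chromosome 2 from 144364364 to 144524583, minus strand) had 23, 21, 34 and 24 counts in the vehicle and 62, 85, 67 and 110 counts in the TP-472 replicates. The lowest TP-472 library lay above the highest vehicle library, vehicle replicate 3. The level rose from 0.725 ± 0.175 to 2.19 ± 0.579 CPM (SD, n = 4 each), or by 1.59 on the log2 scale (SE 0.259, 95% confidence interval 1.01 to 2.18, edgeR adjusted p = 0.00222). It passed the filter, which is set on CPM before TMM scaling, through all 4 TP-472 libraries and 1 vehicle library, and so mainly through the group where it is high. In the fit without a filter its log2 fold change was also 1.59 (edgeR adjusted p = 0.00148). ZEB1 (ENSG00000148516.21; chromosome 10 from 31318495 to 31529814, plus strand) was at 137, 151, 96.5 and 144 CPM in vehicle and 118, 116, 114 and 135 CPM in TP-472 replicates 1 to 4. The groups overlapped through vehicle replicate 3, the lowest of all libraries. Its log2 fold change was −0.13 (95% confidence interval −0.47 to 0.20, edgeR adjusted p = 0.501) with all libraries and −0.26 (adjusted p = 0.0135) without that one, still under 1.5-fold.

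Levels of different genes were compared per kilobase of annotated exon, pooled over all isoforms in GENCODE 29, which understates genes with long rare isoforms. On this scale VIM was the highest of the 10 in vehicle at 492 ± 130 CPM per kb, followed by TWIST1 at 74.1 ± 8.91, SNAI2 at 18.6 ± 2.0, ZEB1 at 15.3 ± 2.82 and CDH2 at 6.35 ± 1.24 CPM per kb (SD, n = 4). EPCAM, SNAI1, FN1, CDH1 and ZEB2 followed in this order and did not exceed 0.333 CPM per kb in any vehicle library. In this order the ranges of SNAI2 and ZEB1 overlapped, as did those of each neighboring pair from EPCAM down to ZEB2, and the other neighbors did not overlap. With TP-472, SNAI1 at 0.615 ± 0.125 CPM per kb stood above FN1 at 0.193 ± 0.0298 and EPCAM at 0.0971 ± 0.0189, with no overlap between these 3 genes.

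**Figure D2:**
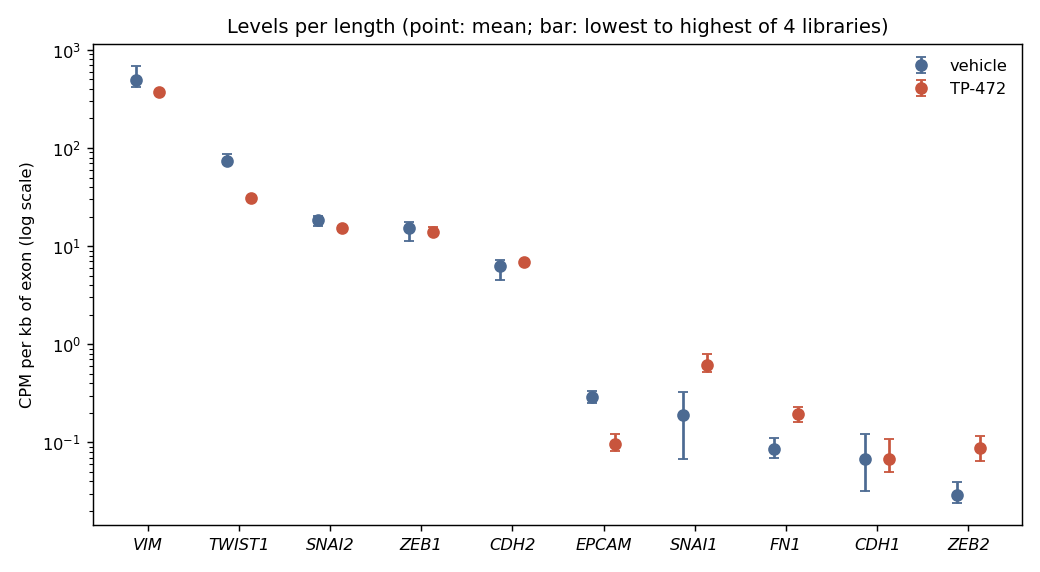
Level per kilobase of exon (y axis, CPM per kb, log scale) of the 10 genes, ordered by their vehicle mean; points are means and bars run from the lowest to the highest of 4 libraries. The 5 genes on the left are at 4.51 CPM per kb or more in all 8 libraries, and the 5 on the right at 0.798 CPM per kb or less.

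SNAI1 and ZEB2 rose but stayed at a small share of the level of their relatives. Per kb, SNAI1 made up 1.07% ± 0.789 of SNAI1 and SNAI2 together in vehicle and 3.91% ± 0.958 with TP-472 (SD, n = 4 each). ZEB2 made up 0.203% ± 0.0995 and 0.619% ± 0.128 of ZEB1 and ZEB2 (SD, n = 4 each). The pooled exonic length was 25058 bases for ZEB2 and 8650 for ZEB1, so the share of ZEB2 may be understated. The summed level of the 5 factors was 108 ± 4.53 CPM per kb in vehicle and 60.7 ± 1.71 CPM per kb in TP-472-treated cells. TWIST1 supplied 68.4% ± 5.30 of that sum in vehicle and 50.8% ± 1.49 with TP-472.

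Of the adhesion genes, EPCAM was lower in treated cells while CDH1 and CDH2 were not called. EPCAM (ENSG00000119888.11; chromosome 2 from 47345158 to 47387601, plus strand) had 24, 22, 29 and 28 counts in vehicle and 8, 11, 9 and 8 counts in TP-472 replicates 1 to 4. No TP-472 library reached a vehicle library. The mean was 2.99-fold lower with TP-472, at 0.245 ± 0.0477 against 0.731 ± 0.0983 CPM (SD, n = 4 each; exact permutation test, p = 0.0286). In the fit without a filter the log2 fold change was −1.57 (95% confidence interval −2.34 to −0.81, edgeR adjusted p = 0.00753).

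CDH1 (ENSG00000039068.19; chromosome 16 from 68737225 to 68835548, plus strand) had 27, 11, 14 and 7 counts in vehicle and 26, 12, 11 and 13 counts in TP-472 replicates. The groups overlapped almost wholly, with replicate 1 the highest in each. Its log2 fold change without a filter was −0.0094 with a 95% confidence interval of −0.997 to 0.98 (edgeR adjusted p = 0.988), so that a change within that interval was not detectable at this depth. CDH2 (ENSG00000170558.9; chromosome 18 from 27950966 to 28177446, minus strand) was at 35.7, 33.9, 22.3 and 33.7 CPM in vehicle and 32.4, 33.6, 35.0 and 35.1 CPM in TP-472 replicates 1 to 4. Apart from vehicle replicate 3, the libraries of both groups lay within the same narrow range. The log2 fold change was 0.11 (95% confidence interval −0.23 to 0.46, edgeR adjusted p = 0.571) and −0.018 without that library (adjusted p = 0.814). Per kb, CDH2 was 98.3% to 99.5% of the sum of both cadherins in every library.

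FN1 and VIM, the matrix and filament genes, were far apart in level. FN1 (ENSG00000115414.20; chromosome 2 from 215360440 to 215436172, minus strand) had 55, 42, 67 and 47 counts in vehicle and 118, 99, 129 and 149 counts in TP-472 replicates 1 to 4. The groups did not overlap. FN1 rose from 1.498 ± 0.322 to 3.34 ± 0.515 CPM (SD, n = 4 each), or by 1.16 on the log2 scale (SE 0.206, 95% confidence interval 0.69 to 1.62, edgeR adjusted p = 0.00339). The study lists FN1 among hub genes that it chose on these same libraries, so its direction is not independent evidence. VIM (ENSG00000026025.16; chromosome 10 from 17228259 to 17237593, plus strand) was at 2248, 2149, 3546 and 2210 CPM in vehicle and 1913, 1850, 1985 and 1883 CPM in TP-472 replicates. The highest TP-472 library was below the lowest vehicle library, and vehicle replicate 3 was far above the rest. The log2 fold change of VIM was −0.41 (95% confidence interval −0.81 to −0.0090, edgeR adjusted p = 0.0983), and −0.21 without that library (adjusted p = 0.0394).

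**Figure D3:**
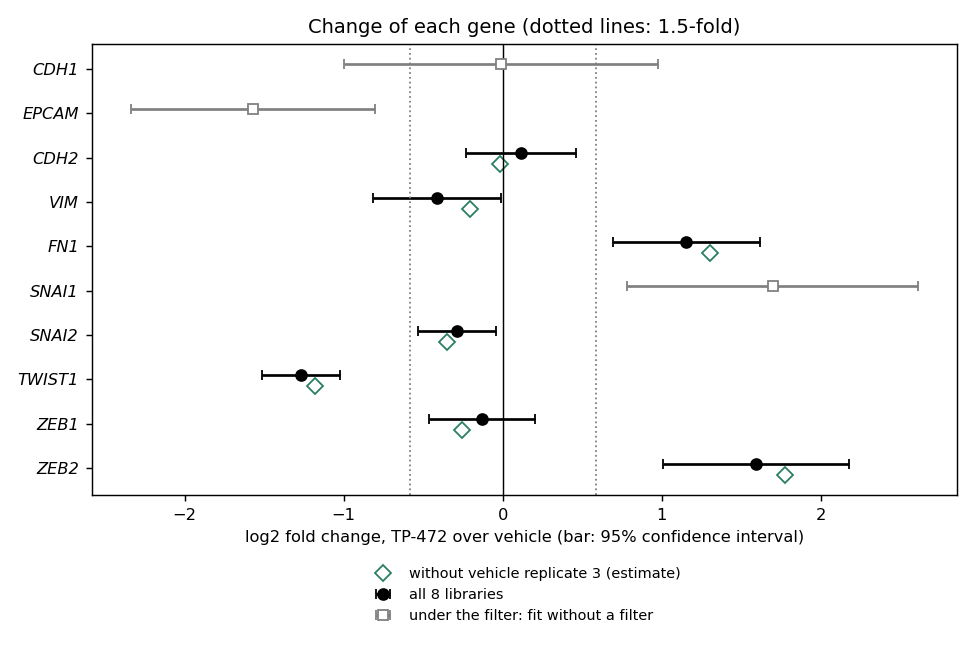
log2 fold change of TP-472 over vehicle (x axis) for the 10 genes with the 95% confidence interval; filled points are the 7 genes tested, open squares the 3 under the filter in a fit without a filter, diamonds the estimates without vehicle replicate 3, and dotted lines a 1.5-fold change. The intervals of FN1, SNAI1, ZEB2, TWIST1 and EPCAM lie wholly beyond 1.5-fold, and those of CDH1, CDH2 and ZEB1 include 0.

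The groups did not overlap for 5 of the 7 tested (FN1 and ZEB2 above, VIM, SNAI2 and TWIST1 below), where over all genes tested the share without overlap was 45.4%, 23.8% with TP-472 above and 21.6% below. Of the 3 genes under the filter, SNAI1 and EPCAM also showed none. The 5 genes with few counts (CDH1, EPCAM, SNAI1, FN1 and ZEB2) went in both directions. In the fit without a filter, the 5006 genes with a mean of 0.3 to 3 CPM had a median log2 fold change of −0.078, with 13.5% called higher and 12.7% lower. The TP-472 libraries also had more genes with at least 1 count, 25363 to 26211 against 23325 to 23939 in vehicle, and the part of this in the low-count rises was not tested.

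Several members have a named antisense gene. VIM-AS1 was at 1.64 to 1.998 CPM in vehicle and 2.41 to 3.58 CPM with TP-472, a log2 fold change of 0.65 (edgeR adjusted p = 0.0295; called in 11 of 19 alternative analyses), against −0.41 for VIM. ZEB1-AS1 was at 6.41 to 7.34 and 5.42 to 6.22 CPM (log2 fold change −0.24, adjusted p = 0.149). ZEB2-AS1 and the SNAI1 pseudogene SNAI1P1 had no count in any library. The study's methods call the libraries strand-specific, but the kit named in the labels is not described there as stranded and the strand setting of the quantification is not given in the sources used here, so reads of a gene and its antisense partner may not be told apart.

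Beyond the 10, 21 other transcription factors linked to EMT were listed and 15 tested. Of these, 3 were called higher and 3 lower, where 12.0% of all genes tested were called higher and 14.9% lower (median log2 fold change −0.066, against −0.026 for all genes tested). The AP-1 subunit FOSL1 rose from 9.90 ± 6.75 to 28.4 ± 3.01 CPM (log2 fold change 1.52, edgeR adjusted p = 0.0158; 2.11 without vehicle replicate 3), ETS1 from 109 ± 21.5 to 211 ± 11.2 CPM (0.96, adjusted p = 0.00206) and RUNX1 by 0.83 on the log2 scale (adjusted p = 0.0311). TCF4, which encodes the E-protein E2-2, a dimerization partner of TWIST proteins, fell from 129.6 ± 17.4 to 53.3 ± 4.16 CPM (−1.28, adjusted p = 2.23e-04). TWIST2, the close relative of TWIST1, had a log2 fold change of −1.16 (adjusted p = 0.0359), which was −0.61 without vehicle replicate 3, and RUNX2 one of −0.72 (adjusted p = 0.0463). RUNX1, TWIST2 and RUNX2 passed the threshold in 11, 13 and 13 of 20 alternative analyses.

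Of 13 transcription and splicing factors of the epithelial state, only EHF and GRHL1 passed the filter. EHF had 19.9 ± 3.31 CPM in vehicle and 25.2 ± 0.88 CPM with TP-472 (log2 fold change 0.34, adjusted p = 0.0793), and GRHL1, named after its values were seen, rose from 0.966 to 2.65 CPM (1.45, adjusted p = 4.15e-04). ESRP1, a splicing factor of epithelial cells, and OVOL2 averaged 0.112 and 0.0144 CPM in vehicle, and GRHL2 had no count there.

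Of 28 epithelial junction, keratin and surface genes listed, 18 were tested, with 5 called higher and 4 lower (median 0.093) beside 12.0% and 14.9% of all genes tested, and 5 and 3 without vehicle replicate 3. KRT18, a keratin of simple epithelia, rose from 7.39 ± 0.871 to 15.6 ± 1.47 CPM (log2 fold change 1.08, edgeR adjusted p = 7.26e-04). The tight junction gene OCLN rose by 0.69 on the log2 scale (adjusted p = 0.0136) and was at 0.57, under 1.5-fold, without vehicle replicate 3. KRT19 (−0.85, adjusted p = 0.0151), the polarity scaffold gene PATJ (−0.81, adjusted p = 0.00256) and the desmosome gene DSP (−0.62, adjusted p = 0.00514) fell. DSP was at −0.56 and under 1.5-fold without vehicle replicate 3, and KRT19 at −0.49 and under 1.5-fold with a GC correction. TJP1, the most abundant of the list over all libraries, at 113 ± 7.76 CPM in vehicle, was at 125 ± 11.9 CPM with TP-472 (adjusted p = 0.272). CD24, CLDN1 and MUC1, which were also called, were under the abundance limit for naming and are named after their values were seen: CD24 rose from 0.934 to 6.30 CPM (2.75, adjusted p = 1.88e-04) and CLDN1 from 2.18 to 5.22 CPM (1.26), and MUC1 fell from 2.77 to 0.927 CPM (−1.58). The summed level of the list was 341 to 380 CPM in vehicle and 327 to 373 CPM in TP-472 libraries.

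Of the mesenchymal surface and matrix genes, 18 of 23 listed were tested, and 8 were called lower and 3 higher (median −0.39), where 14.9% of all genes tested were called lower and 12.0% higher. Without vehicle replicate 3 the counts were also 8 and 3 (median −0.22). The 3 with the largest decreases were fibrillar collagen genes. COL1A2 fell from 589 ± 77.3 to 98.8 ± 4.83 CPM (log2 fold change −2.58, edgeR adjusted p = 1.74e-05), COL5A1 by 2.96 on the log2 scale (adjusted p = 0.00406; −2.08 without vehicle replicate 3), and COL1A1 by 2.35 (adjusted p = 0.0222; −1.46 without it; called in 12 of 19 alternative analyses). SPARC, a secreted collagen-binding protein gene and the most abundant of the list over all libraries, fell from 565 ± 18.3 to 325 ± 9.10 CPM (−0.80, adjusted p = 4.32e-04). NT5E, the gene of the surface enzyme CD73, rose from 97.6 ± 16.8 to 188 ± 3.22 CPM (0.94, adjusted p = 0.00123). TNC, named after its values were seen, was also called higher (1.25, adjusted p = 0.00462). The summed level of the list was 2378 to 2714 CPM in vehicle and 1378 to 1388 CPM in TP-472 libraries.

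**Figure D4:**
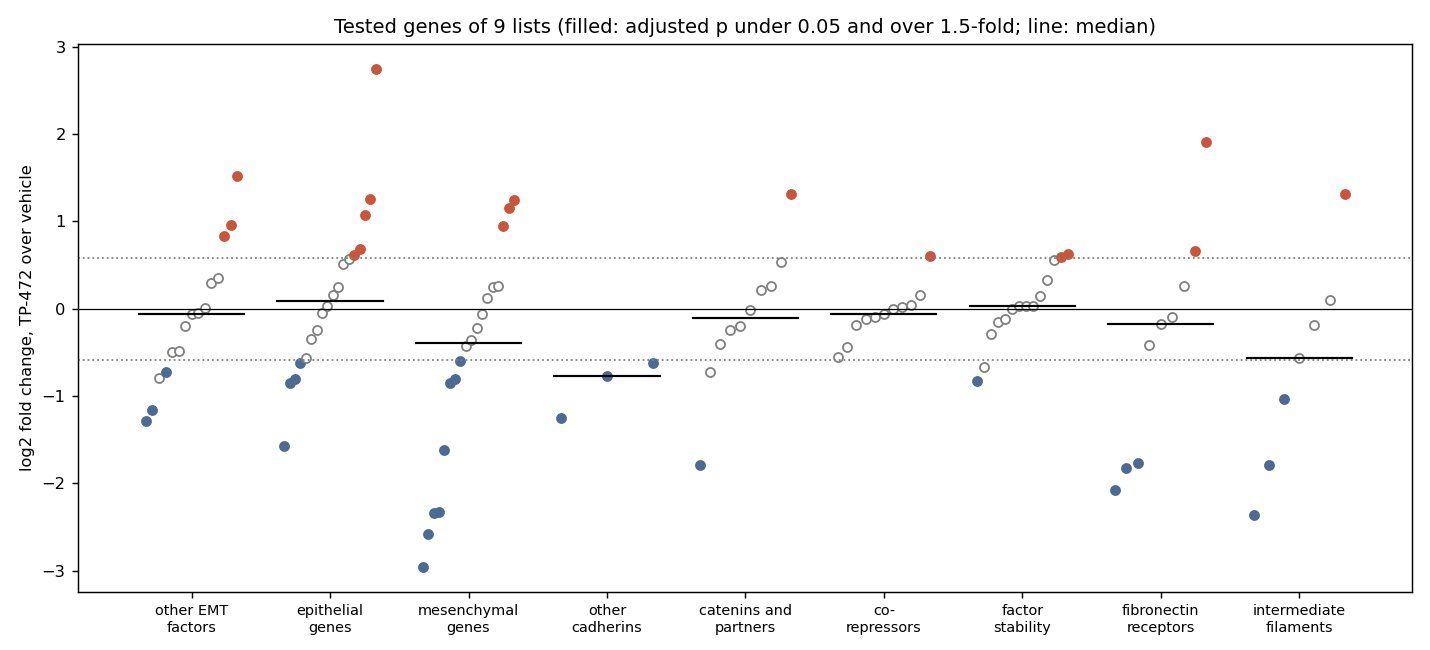
log2 fold change of TP-472 over vehicle (y axis) for the tested genes of 9 lists (x axis), sorted within each list; filled points passed an adjusted p-value of 0.05 and 1.5-fold, open points did not, and lines are list medians. With all libraries, the medians of mesenchymal genes (−0.39), other cadherins (−0.77) and intermediate filament genes (−0.57) lie lowest, while corepressors and stability genes lie near 0. Without vehicle replicate 3 these medians were −0.22, −0.89 and −0.25. That of the fibronectin receptor and assembly genes was −0.18 with all libraries and −0.29 without this one, below those of the mesenchymal and filament genes. The cadherin median rests on 3 tested genes. Some genes, such as CDH11 and DES, passed the filter in full only through the group where they are high, so the list medians are a description.

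The partners of the members were tested in the same way. Of 18 other cadherins, 3 passed the filter, too few to describe the group. They were called lower, as were 14.9% of all genes tested: CDH24 (log2 fold change −1.26, edgeR adjusted p = 0.00706) and CDH3, P-cadherin (−0.62, adjusted p = 0.00296), with CDH11, named after its values were seen, at −0.77 (adjusted p = 0.0465, and 0.101 in the fit without a filter). Without vehicle replicate 3, CDH24 was at −0.89 and CDH3 at −0.58 and under 1.5-fold. Among 10 catenins and partners tested, JUP (plakoglobin) fell by 1.79 on the log2 scale (adjusted p = 0.00506, −1.28 without vehicle replicate 3). PLEKHA7, named after its values were seen, rose by 1.31 (adjusted p = 0.00389). It passed the filter only through the TP-472 libraries, where it is high, so its call is a description. CTNNA1, CTNNB1 and CTNND1, core components of the cadherin complex, had log2 fold changes of −0.016, 0.26 and −0.25 and were not called.

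Fibronectin receptors and assembly genes had 2 calls higher and 3 lower among 9 tested, beside 12.0% and 14.9% of all genes tested. TGM2, a transglutaminase that crosslinks matrix proteins and binds fibronectin, rose from 104 ± 28.4 to 392 ± 15.1 CPM (log2 fold change 1.91, edgeR adjusted p = 1.86e-04), and the syndecan gene SDC4 by 0.67 (adjusted p = 0.00384, 0.58 and under 1.5-fold without vehicle replicate 3). The tensin genes TNS1 and TNS3 and the fibulin gene FBLN1 fell by 2.08, 1.82 and 1.77 on the log2 scale (adjusted p = 0.00387, 0.00114 and 0.00234). ITGB1 and ITGA5, the subunits of the main fibronectin receptor, were not called (0.26 and −0.41, adjusted p = 0.41 and 0.082).

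Among the other intermediate filament genes and linkers, 1 was called higher and 3 lower of 7 tested (median −0.57, and −0.25 without vehicle replicate 3), beside 12.0% and 14.9% of all genes tested. INA, which encodes internexin, rose by 1.32 on the log2 scale (edgeR adjusted p = 2.41e-04), whereas NES (nestin) fell by 1.03 (adjusted p = 0.00427) and PLEC (plectin) by 1.79 (adjusted p = 0.0412; called in 12 of 20 alternative analyses). PLEC was at 679 CPM in vehicle replicate 3 and 99.0 to 179.7 CPM in the other vehicle libraries, and its log2 fold change was −0.73 without that library. DES (desmin), named after its values were seen, fell by 2.36 (adjusted p = 1.89e-04). It passed the filter only through the vehicle libraries, where it is high, so its call is a description. Of 11 corepressors that SNAI and ZEB proteins recruit, all were tested and HDAC2 alone was called (0.60, adjusted p = 0.0402, 0.42 and not called without vehicle replicate 3). Among 14 tested genes acting on the stability of these factors, the ubiquitin ligase genes SIAH2 (0.63, adjusted p = 0.00215) and FBXO45 (0.60, adjusted p = 0.0445) were called higher, and LOXL3, named after its values were seen, lower (−0.82, adjusted p = 0.00798). Neither ligase reached 1.5-fold without vehicle replicate 3. HDAC2, FBXO45 and SIAH2 were called in 8, 7 and 19 of 20 alternative analyses.

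Some of the list genes called, like ZEB2, passed the filter in full only through the group where they are high. Their calls, their adjusted p-values in the filtered fit and their place in the counts and list medians are therefore a description. GRHL1, CD24, TNC and PLEKHA7 were above 1 CPM by total count in all 4 TP-472 libraries and in 2, 2, 2 and 0 vehicle libraries. MUC1, CDH11 and DES were above it in all 4 vehicle libraries and in 1, 1 and 0 TP-472 libraries.

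The genes whose log2 CPM most resembled that of ZEB2 over the 8 libraries were LINC01348, CCDC62 and MYH15, with Pearson correlations of 0.984, 0.983 and 0.982. For TWIST1 they were SIRT3, STAT2 and MX2, at 0.998, 0.997 and 0.996. Such values were common, as 542 tested genes had a correlation over 0.95 with TWIST1 and 106 with ZEB2.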

How the data were processed

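RNA-seq of 4 vehicle-treated and 4 TP-472-treated SK-UT-1 samples was analysed. The authors mapped reads with STAR and summarised their quality, quantified transcripts with Salmon 1.4.0 (GRCh38, per the submitters' processing notes) and summed them to genes with tximport (GENCODE V34). The values deposited by the authors are estimated counts, neither normalized nor filtered.

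Rounded counts were filtered (above 1 CPM by total count, 4 or more of 8 libraries), scaled by TMM and fitted with edgeR 4.0.16 (R 4.3.3; quasi-likelihood F test), without covariates, with Benjamini-Hochberg adjustment over 14073 genes. Calls required both an adjusted p-value below 0.05 and a change above 1.5-fold, as in the study. CPM printed are TMM-scaled. Exact two-sided permutation tests of mean CPM used the 70 assignments of libraries to groups (smallest p 0.0286). Confidence intervals cover 95%. Coordinates, exonic lengths and GC content came from GENCODE 29, joined by identifier (GC for 99.3% of tested genes), and promoters from RefSeq. The calculations were tested on simulated counts.

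The members and the 15 gene lists, written from general knowledge, were chosen with earlier results of these data known. Named are all members, up to 3 called genes of each list in each direction with a mean of at least 5 CPM, antisense genes and targets of the compound, the most abundant marker of each cell type, and the 3 genes most correlated with the called members of largest rise and fall. A few genes that this rule or a list would name are not reported here. Alternatives were DESeq2 1.42.0, limma-voom (limma 3.58.1), other scalings and filters, robust estimation, a replicate block, unrounded counts, a GC correction, other call rules and each library left out.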

Additional observations from a re-analysis of the deposited data

Results flagged for a closer look

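A single library lay far from the other 3 of its group (by Dixon's test, which sets the gap to the nearest library against the range of the group) in 5 of 28 groups checked, where chance gives about 1 in 20. Vehicle replicate 3 accounted for 3 of them. It had 3546 CPM of VIM against 2149 to 2248 CPM in the other vehicle libraries, 22.3 CPM of CDH2 against 33.7 to 35.7 CPM, and 115 CPM of BRD9 against 66.1 to 72.1 CPM. TP-472 replicate 1 had 0.673 CPM of CDH1 against 0.305 to 0.343 CPM in the other TP-472 libraries. TP-472 replicate 4 had 135 CPM of ZEB1 against 114 to 118 CPM. None of FN1, ZEB2, SNAI1, TWIST1 and EPCAM showed such a library.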

How the results depend on the processing

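Of the 10 genes, the calls of FN1, ZEB2 and TWIST1 held in all 19, 19 and 20 alternatives that tested them (the 5 CPM filter leaves out FN1 and ZEB2). Their log2 fold changes ran from 0.97 to 1.30, from 1.38 to 1.77 and from −1.31 to −1.04, and those of SNAI1 and EPCAM, without a filter or with DESeq2, from 1.41 to 2.05 and from −1.73 to −1.501, each called in 10 of 10 such fits. The number of the 10 called was 3 in most settings, 5 with DESeq2 and 5 without a filter (SNAI1 and EPCAM added), and 1 with a 5 CPM filter. Over all genes, 3789 of 14073 were called in the main fit, 5598 of 33124 with DESeq2, 5090 of 33192 without a filter and 2672 of 11067 with the 5 CPM filter. A test against 1.5-fold gave 1123 genes in place of 3789, and 20 in place of 48 of the listed genes.

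Direction changed for results that were not called. The log2 fold change of CDH1 was 0.45, 0.060, 0.095 and 0.078 without a filter and without vehicle replicate 1 or TP-472 replicates 2, 3 or 4, 0.049 with the block and 6.41e-05 with DESeq2. Without vehicle replicate 3, the log2 fold change of CDH2 was −0.018 and the log2 fold change of BRD9 was 0.058, and over all libraries left out in turn CDH2 ran from −0.018 to 0.18 and BRD9 from −0.25 to 0.058. With the GC correction the log2 fold change of BRD7 was −0.032, and −0.022 with the block added. The fits without a filter that leave out a library or add the block were chosen after seeing the data. The cause was not tested.

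With replicate number as a block, 3055 of the 14073 genes tested were called, 3 of the 10 among them. Same-numbered libraries correlated at −0.055, 0.12, −0.17 and −0.18 in their deviations from the group means. These values showed no pairing by number, but so few libraries cannot exclude one. Leaving out 1 library gave 2690 to 4223 called genes of the 14073 tested, 3 of the 10 each time, and 38 to 48 listed genes. No vehicle library had its highest such correlation with the same-numbered TP-472 library. Depth limits CDH1, SNAI1 and EPCAM, whose libraries hold 4 to 52 counts.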

Other observations

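Of 10 smooth muscle markers listed, 7 were tested and 3 were called lower with TP-472 (median log2 fold change −0.67; 4 lower and median −0.59 without vehicle replicate 3), where 14.9% of all genes tested were called lower and 12.0% higher. TAGLN, an actin-binding protein gene of smooth muscle, fell from 32.3 ± 3.40 to 20.3 ± 1.94 CPM (−0.67, edgeR adjusted p = 0.00397; −0.47 and under 1.5-fold with a GC correction), and CALD1, the most abundant, was at 199.6 ± 15.3 and 192 ± 5.65 CPM (adjusted p = 0.646). The other 2 called were DES and LMOD1 (−2.36 and −1.84), both named after their values were seen and above 1 CPM by total count in all 4 vehicle and 0 TP-472 libraries. These 2 entered the 7 tested only through the group where they are high, so the counts of calls and the medians are a description.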
